A study of Zea mays with 6 samples.

Results

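The genes described here had low values, below 0.5 FPKM, in wild-type leaves of maize and were listed at 1 FPKM or more in leaves of the hda108 mutant. A gene was taken when its deposited value was above 0 and below 0.5 FPKM in wild type and at least 1 FPKM in hda108, on chromosomes 1 to 3 and 5 to 10, with a locus entry shared by no other row. FPKM relates the fragments of a gene to the length of its transcript and to all mapped fragments of the library. Of 39604 rows in the table, 33006 met the conditions on chromosome and locus and 110 met all of them. The same rule with the genotypes swapped, called the mirror set here, took 38 genes. The RNA came from the developing 11th leaf, still enclosed by older leaves, of plants at vegetative stage 8, with 3 strand-specific libraries of rRNA-depleted total RNA from hda108/hda108 mutant plants and 3 from wild-type plants. All plants grew in a greenhouse; the nature of the mutant allele and the inbred background are not given in the sources used here. The authors deposited 1 value per gene and genotype, so no difference below has a replicate check, no p-value or SD can be given, and the depth behind the values is unknown. The genes were chosen by their FPKM in this one contrast, so those values are a description. In bulk leaf tissue, a change in the share of a cell type and a change in RNA per cell cannot be told apart.

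HDA108 encodes a histone deacetylase. Enzymes of this class remove acetyl groups from histone tails, and chromatin without those groups is generally packed more tightly and transcribed less. Plants keep many genes of flowers, seeds and defence at very low levels in a growing leaf, and deacetylase complexes are known to take part in such silencing. HDA108 itself, on chromosome 4, had 3.06 FPKM in hda108 and 10.9 FPKM in wild type, so it was lower in the pool labelled as mutant.

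Genes that were quiet in wild type and listed at 1 FPKM or more in hda108 outnumbered genes of the opposite pattern. There were 110 against 38, so that 74.3% of the 148 genes were higher in hda108. Of all 5397 rows that were low in wild type, 2.04% reached 1 FPKM in hda108, and of 5597 rows that were low in hda108, 0.679% reached 1 FPKM in wild type. The step just short of the limit had the same order, with 542 rows low in wild type and between 0.5 and 1 FPKM in hda108 and 308 rows the other way round. Under quantile normalization, which gives both genotypes the same distribution of values, 73 genes were higher in hda108 and 63 in the mirror set, or 53.7% of the total. All 73 were among the 110. At these limits the method lowers hda108 values and raises wild-type values, so the 73 could only come from the 110.

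Most of the 110 genes stayed weakly expressed in hda108. Their values there had a median of 1.32 FPKM, with a lowest of 1.01 and a highest of 7.03 FPKM, and in wild type the median was 0.357 FPKM with a range of 0.0211 to 0.4996 FPKM. The ratio of the genotypes had a median of 4.21 and quartiles of 2.93 and 6.19, and 11 genes had a ratio of 10 or more. In the mirror set the values were 0.129 to 0.498 FPKM in hda108 and 1.0004 to 2.55 FPKM in wild type, and the median ratio of wild type to hda108 was 3.81. Toward higher values, 17 genes were at 2 FPKM or more in hda108 against 4 mirror genes in wild type, and 7 against 0 were at 3 FPKM or more. At the lower limit, 25 genes were below 0.25 FPKM in wild type and 7 mirror genes were below it in hda108.

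**Figure D1:**
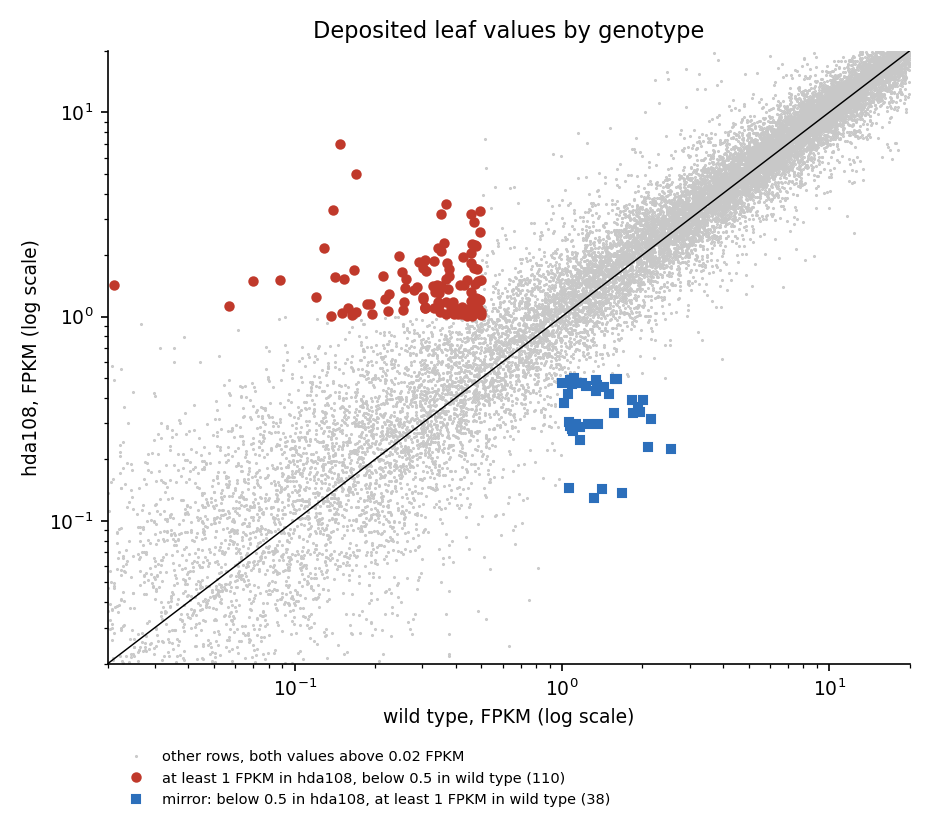
Deposited value of each gene in hda108 (vertical, FPKM, log scale) against wild type (horizontal, FPKM, log scale) for rows on the chromosomes of the rule, with the line of equal values. The 110 circles reach 7.03 FPKM in hda108, while the 38 squares of the mirror set end at 2.55 FPKM in wild type.

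The rule fixes where the groups end. Just inside the minimum were GRMZM2G526748 (1.01 FPKM in hda108, 0.461 in wild type), GRMZM2G132095 (1.01 in hda108, 0.442 in wild type) and GRMZM2G000665 (1.01 in hda108, 0.137 in wild type). Just outside it were GRMZM2G086730 (0.999 FPKM in hda108, 0.134 in wild type), GRMZM2G475380 (0.994 in hda108, 0.243 in wild type) and AC209819.3_FG003 (0.993 in hda108, 0.170 in wild type). Their hda108 values ran on without a break across the minimum. Just inside the wild-type ceiling were GRMZM2G448458 (1.05 FPKM in hda108, 0.4996 in wild type), GRMZM2G103135 (1.02 in hda108, 0.498 in wild type) and GRMZM2G062197 (1.52 in hda108, 0.498 in wild type). Just outside it were GRMZM2G037831 (1.90 FPKM in hda108, 0.501 in wild type), GRMZM2G093755 (1.60 in hda108, 0.501 in wild type) and AC212449.4_FG007 (1.10 in hda108, 0.506 in wild type). The wild-type values likewise ran on across the ceiling.

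The highest gene of the set, GRMZM2G088413 (chromosome 1, 254478909 to 254482162, B73 RefGen_v3 as the table lists it, like all coordinates here), had 7.03 FPKM in hda108 and 0.148 FPKM in wild type. It has no entry in the RefSeq table used for names. GRMZM2G512616 (chromosome 9, 67412400 to 67413017) had 4.98 FPKM in hda108 and 0.169 FPKM in wild type, and the rows on either side of it were listed at 0 in both genotypes. These are the only genes of the set above 4 FPKM in hda108. GRMZM2G400156, a protein-coding gene without an informative symbol, had 3.17 FPKM in hda108 and 0.457 FPKM in wild type. AC184133.3_FG001, GRMZM2G468056 and GRMZM2G046331 had 3.28, 2.60 and 2.28 FPKM in hda108, against 0.494, 0.494 and 0.362 FPKM in wild type. GRMZM5G889240 and GRMZM5G881846, in short loci of 380 and 271 bp, had 2.27 and 2.24 FPKM in hda108, against 0.462 and 0.473 FPKM in wild type.

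A few genes had far lower wild-type values. AC188583.4_FG003 (chromosome 9, 10533793 to 10534374) had 1.42 FPKM in hda108 and 0.0211 FPKM in wild type, the largest ratio of the set at 67.4. GRMZM2G377690 had 1.49 FPKM in hda108 and 0.0699 FPKM in wild type. AC208564.3_FG004 and GRMZM2G004521 had 1.51 and 1.12 FPKM in hda108, against 0.0878 and 0.0567 FPKM in wild type. These 4 genes were below 0.1 FPKM in wild type, and 0 mirror genes were below 0.1 FPKM in hda108. GRMZM5G884319 had 2.15 FPKM in hda108 and 0.128 FPKM in wild type. On a log2 scale with 0.5 added to each FPKM, the difference of hda108 minus wild type puts GRMZM2G088413 first (3.54), then GRMZM2G512616 (3.04) and GRMZM2G124037 (2.58). The added 0.5 shrinks the ratios of genes near 0. On that scale 72 of the 110 genes were at least 2-fold higher. Among the 17531 rows with both values above 0 and a mean of at least 1 FPKM, 1.41% were at least 2-fold higher in hda108 and 0.673% at least 2-fold lower, but the rule used this contrast and nothing can be read from the members' share.

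Of the 110 genes, 14 carry an informative name, against 0 of the 38 mirror genes. They make up 12.7% of the set, while 5.33% of the other 5287 rows low in wild type are named, as are 6.86% of all rows and 7.03% of rows in the same range of hda108 values with at least 0.5 FPKM in wild type. At such shares as few as 38 genes can give no name. A name also needs a single RefSeq entry, matched for 42.7% of the set and 26.3% of the mirror set. Of 296 named rows low in wild type, 4.73% reached 1 FPKM in hda108. Of 270 named rows low in hda108, 0 reached it in wild type. The family lists below hold named rows only. Each of them therefore has 0 mirror genes in the deposited values, which repeats this one count. Under quantile normalization 11 named genes stayed in the set, and 1 named gene, the expansin gene expB7, entered the mirror set at 0.467 FPKM in hda108 and 2.51 FPKM in wild type on the normalized scale. The named genes that left the set of genes higher in hda108 were ysl11, BAF60.11 and A1.

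**Figure D2:**
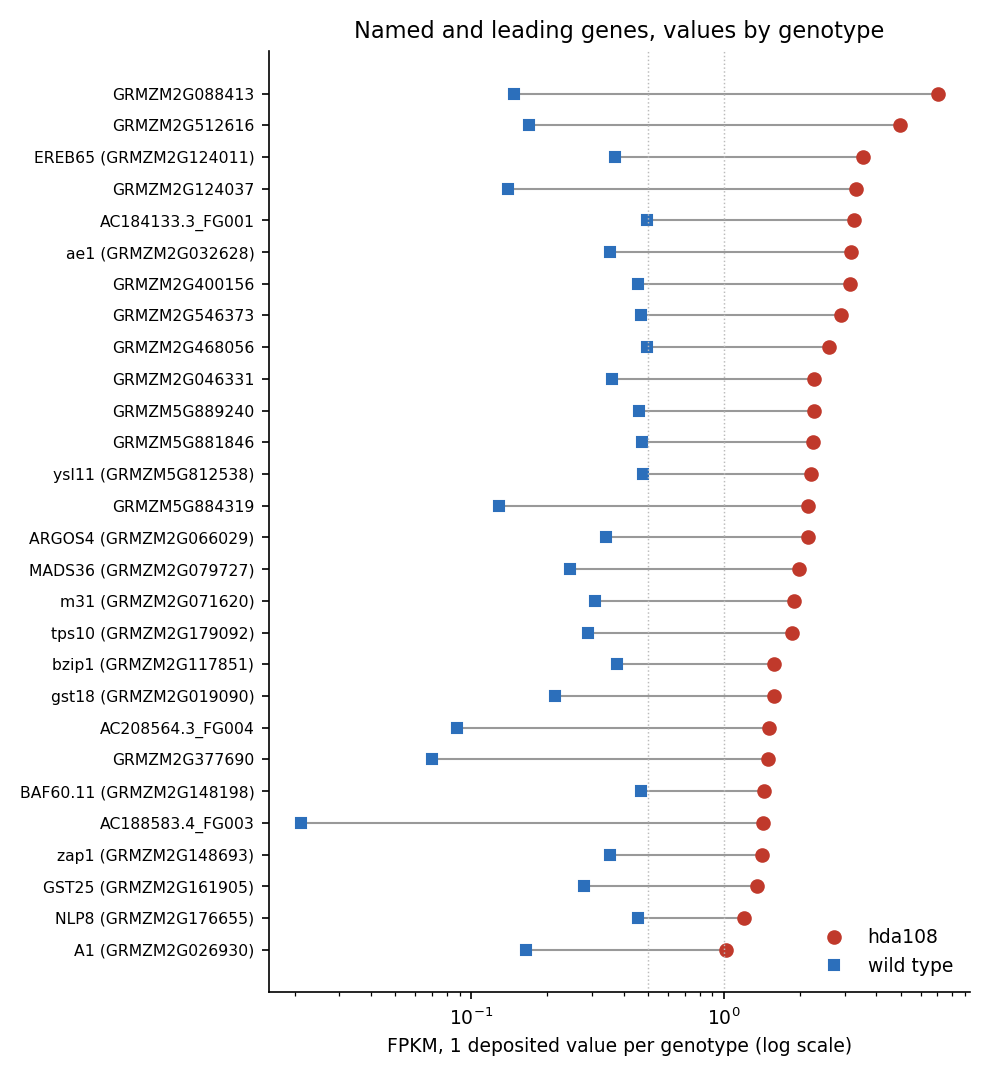
Deposited FPKM (log scale) of the 28 genes that have a name, the highest hda108 values or the largest log2 differences, with circles for hda108 and squares for wild type. The dotted lines mark 1 and 0.5 FPKM, and hda108 values run up to 7.03 FPKM at the top.

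Of the 14 named genes, 6 belong to transcription factor families. EREB65 (GRMZM2G124011, chromosome 2, 195135263 to 195136246) belongs to the ethylene response factor family, whose members bind DNA in hormone and stress responses. It had 3.55 FPKM in hda108 and 0.370 FPKM in wild type, the third highest value of the set. Among the other 20 rows of the family with a mean of at least 1 FPKM, 3 were at least 2-fold higher in hda108 and 0 lower, beside 1.41% higher and 0.673% lower over all such rows. These 3, EREB36, EREB92 and EREB56, had 16.3, 47.0 and 2.003 FPKM in hda108, against 2.92, 17.8 and 0.524 FPKM in wild type. Of 32 rows named as ethylene response factors, 9 were low in wild type and EREB65 alone of these reached 1 FPKM in hda108, while 0 of the 5 that were low in hda108 reached 1 FPKM in wild type. Over all rows these shares were 2.04% and 0.679%, and over named rows 4.73% and 0 of 270.

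MADS-box genes gave 3 members. These genes encode regulators of flower, inflorescence and flowering-time programmes. MADS36 (GRMZM2G079727, chromosome 3, 201371184 to 201375806) had 1.97 FPKM in hda108 and 0.245 FPKM in wild type. The gene m31, also called zmm31 (GRMZM2G071620, chromosome 5, 6925446 to 6932461) and related to the SEPALLATA genes of flower development, had 1.89 FPKM in hda108 and 0.308 FPKM in wild type. The gene zap1 (GRMZM2G148693, chromosome 2, 236669674 to 236679078), a relative of APETALA1, had 1.41 FPKM in hda108 and 0.352 FPKM in wild type. Of 29 MADS-box rows, 14 were low in wild type and these 3 reached the limit, and 0 of 9 did so the other way. Over all rows the shares were 2.04% and 0.679%, and over named rows 4.73% and 0 of 270. Of the 8 other MADS-box rows with a mean of at least 1 FPKM, 7 were higher in hda108, with a median log2 difference of 0.34 against 0.06 over all such rows, and m15 was the one past 2-fold. Of the other rows, GRMZM2G102161, which carries the symbols of both zmm8 and zmm14, missed the ceiling narrowly, with 1.17 FPKM in hda108 and 0.506 FPKM in wild type, and zmm27 (GRMZM2G129034) had the opposite order, with 0.00818 FPKM in hda108 and 0.214 FPKM in wild type. All 3 members stayed in the set under quantile normalization.

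The other regulators were bzip1 and NLP8. The gene bzip1 (GRMZM2G117851, chromosome 3, 212260635 to 212276109), named for the basic leucine zipper class, had 1.58 FPKM in hda108 and 0.376 FPKM in wild type. Of 24 rows named as bZIP, 2 were low in wild type and bzip1 was the one to enter the set. The share was 2.04% over all rows and 4.73% over named rows, and from 2 rows nothing can be read. No bZIP row was low in hda108 in the sense of the mirror rule. NLP8 (GRMZM2G176655), of the NIN-like protein family known for nitrate responses, had 1.20 FPKM in hda108 and 0.458 FPKM in wild type, a log2 difference of 0.82 on FPKM + 0.5 and so short of 2-fold on that scale. BAF60.11 (GRMZM2G148198), named after a subunit of SWI/SNF chromatin remodelling complexes, had 1.44 FPKM in hda108 and 0.471 FPKM in wild type. The other BAF60 rows were not low in wild type: BAF60.9, BAF60.10 and BAF60.21 had 3.36, 51.7 and 27.2 FPKM in hda108, against 3.36, 52.0 and 20.8 FPKM in wild type. No gene named as MYB, bHLH, WRKY, NAC or homeobox entered the set. Of these lists, 13, 10, 5, 7 and 8 rows were low in wild type. At the 2.04% over all rows, or 4.73% over named rows, so few rows can give no member.

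Genes of metabolism and transport made up the remainder. The gene ae1 (GRMZM2G032628, chromosome 5, 168492138 to 168509225) encodes starch branching enzyme IIb, best known from endosperm, where its loss gives high-amylose starch. It had 3.18 FPKM in hda108 and 0.352 FPKM in wild type, the highest named value after EREB65, over a locus of 17087 bp. Of 11 rows for starch and endosperm genes, 3 were low in wild type and ae1 was the one to enter the set. Over all rows low in wild type the share was 2.04%, and over named ones 4.73%. With 3 listed rows low in wild type nothing can be read from this. Of the 2 listed rows low in hda108, 0 entered the mirror set. The prolamin storage gene zp15 had 0.775 FPKM in hda108 and 0.154 FPKM in wild type, the storage regulator o2 was listed at 0 in both, and the sucrose synthase gene sh1 was abundant, with 32.5 FPKM in hda108 and 34.9 FPKM in wild type. The starch synthesis gene sh2 had 0.834 FPKM in hda108 and 0.558 FPKM in wild type.

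Enzymes of defence chemistry and detoxification added 3 genes. The gene tps10 (GRMZM2G179092, chromosome 10, 74488738 to 74492309) encodes a sesquiterpene synthase known for volatiles released after herbivore attack. It had 1.85 FPKM in hda108 and 0.291 FPKM in wild type. Among the other 14 rows named tps with a mean of at least 1 FPKM, 2 were at least 2-fold higher in hda108 and 2 lower, and this symbol is shared by terpene synthases and unrelated enzymes. A row near tps10, TPS5 (GRMZM2G074309), lies 237 kb away and had the opposite order, with 1.11 FPKM in hda108 and 3.93 FPKM in wild type. The glutathione S-transferase genes gst18 (GRMZM2G019090) and GST25 (GRMZM2G161905), from a family of detoxifying enzymes, had 1.57 and 1.35 FPKM in hda108, against 0.213 and 0.279 FPKM in wild type. The family was listed after the values were seen, so a member was certain. It counted 30 rows, of which 9 were low in wild type, and of these gst18 and GST25 entered the set. Over all rows low in wild type the share was 2.04%, and over named ones 4.73%. Of its 8 rows low in hda108, 0 entered the mirror set. None of its 18 rows with a mean of at least 1 FPKM differed 2-fold. The neighbour of GST25, gst35, 8445 bp away, had 0.278 FPKM in hda108 and 0.0582 FPKM in wild type and stayed below the limit.

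A1 (GRMZM2G026930, chromosome 3, 216386030 to 216387865) encodes dihydroflavonol reductase of the anthocyanin pathway and had 1.02 FPKM in hda108 and 0.165 FPKM in wild type, so it sits at the edge of the set. Of 10 anthocyanin rows, 3 were low in wild type and A1 alone entered the set, beside 2.04% over all and 4.73% over named rows. The anthocyanin list was made after the values were seen, so a member was certain. Of its 6 rows with a mean of at least 1 FPKM none was past 2-fold: the later pathway gene bz1 (bronze1) had 21.6 FPKM in hda108 and 12.4 FPKM in wild type, and the regulator pl1 had 1.11 FPKM in hda108 and 1.92 FPKM in wild type. ARGOS4 (GRMZM2G066029, chromosome 6, 147571949 to 147572995), of a family known for organ size and ethylene sensitivity, had 2.15 FPKM in hda108 and 0.342 FPKM in wild type. It was the one of 8 ARGOS rows that was low in wild type in the sense of the rule; ARGOS9 had 1.57 FPKM in hda108 and 0.868 FPKM in wild type, and ARGOS6 had 2.72 FPKM in hda108 and 3.37 FPKM in wild type. The gene ysl11 (GRMZM5G812538), of the yellow stripe-like family of metal transporters, had 2.22 FPKM in hda108 and 0.479 FPKM in wild type in a locus of 762 bp, while its neighbour ysl12, 3214 bp away, had 10.1 FPKM in hda108 and 9.33 FPKM in wild type. Of 38 transporter rows, 11 were low in wild type and ysl11 alone entered the set, beside 2.04% over all and 4.73% over named rows. Another 11 were low in hda108, and 0 of them entered the mirror set. Heat shock, peroxidase or chitinase, and anther rows gave no member, but with 2, 4 and 2 rows low in wild type nothing can be read from this.

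The matched markers of the shoot meristem, anther, root and ear were below 0.5 FPKM in both genotypes. Matches were found for 3 of 4 shoot meristem, 3 of 6 anther or pollen, 1 of 3 root and 4 of 4 silk or ear symbols. The highest was knox8, with 0.297 FPKM in hda108 and 0.415 FPKM in wild type. Summed over the matched rows, the shoot meristem list had 0.340 FPKM in hda108 and 0.462 FPKM in wild type, the anther or pollen list 0.0889 FPKM in hda108 and 0.0273 FPKM in wild type, and the silk or ear list 0.144 FPKM in hda108 and 0.0915 FPKM in wild type. Of these, ms8, zag2, ra1 and ra3 were listed at 0 in both genotypes, as was the root gene rtcs1. The endosperm list had 8.59 FPKM in hda108 and 6.32 FPKM in wild type, of which bt2 on chromosome 4 gave 7.68 FPKM in hda108 and 5.76 FPKM in wild type, with o2 and fl2 at 0 in both. The leaf markers, matched by symbol, summed to 7950 FPKM in hda108 and 9994 FPKM in wild type, with 1 of 15 rows higher in hda108. That row, GRMZM5G899080, had 6.97 FPKM in hda108 and 5.45 FPKM in wild type. It shares the symbol pep1 with GRMZM2G083841, which had 85.6 FPKM in hda108 and 167 FPKM in wild type. The part of the leaf marker shift in the values above was not tested.

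The genes of the set were shorter than most, and the mirror genes shorter still. The locus span in the table, introns included, had a median of 1727 bp in the set, 845 bp in the mirror set, 1873 bp among the other rows low in wild type and 3252 bp among rows in the same range of hda108 values with at least 0.5 FPKM in wild type. Loci under 1000 bp made up 35.5% of the set, 52.6% of the mirror set, 19.9% of the other rows low in wild type and 19.2% of all rows. A RefSeq entry was matched for 47 of the 110 genes (42.7%), 45 of them protein coding and 2 transcribed pseudogenes, for 10 of the 38 mirror genes (26.3%), for 31.5% of the other rows low in wild type and for 46.8% of all rows.

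The ratio of genes in the set to mirror genes was larger among loci of at least 2000 bp than among shorter ones. In loci under 500 bp there were 12 genes against 8 mirror genes, between 500 and 1000 bp 27 against 12, and between 1000 and 2000 bp 26 against 12. In loci of 2000 to 5000 bp there were 33 against 5, and in loci of 5000 bp or more 12 against 1. Taken as shares, 1.81% of rows of at least 2000 bp that were low in wild type reached 1 FPKM in hda108, and 0.231% of those low in hda108 reached it in wild type. In loci under 500 bp these shares were 6.70% and 3.77%. Both shares, and the gap between them, were thus larger in the shortest loci, although the ratio was smaller. With 1 RefSeq entry and a span of at least 2000 bp the counts were 26 and 2. Quantile normalization lowered the surplus in every span class, a direction that the method fixes at these limits. It left 31 against 18 in loci of at least 2000 bp and 10 against 3 in those of at least 5000 bp. In loci of 1000 to 2000 bp the mirror set was then larger, at 15 against 20.

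**Figure D3:**
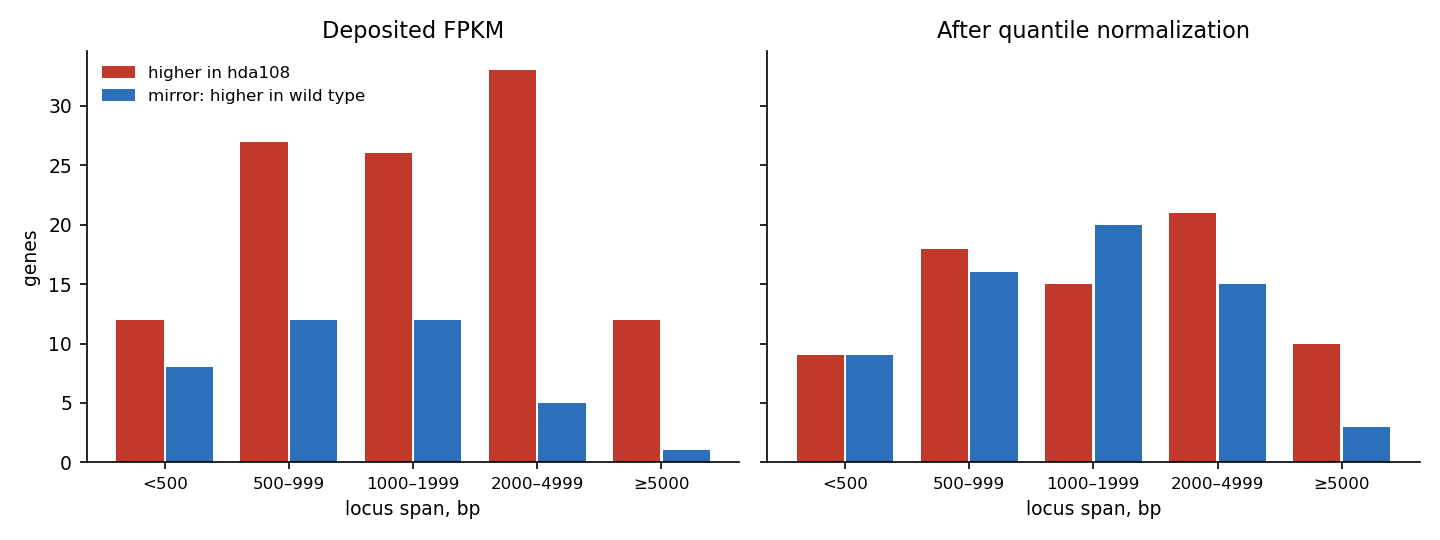
Number of genes higher in hda108 and in the mirror set (vertical) by locus span in bp (horizontal), from the deposited FPKM on the left and after quantile normalization on the right. On the left the classes from 2000 bp upward hold 33 against 5 and 12 against 1 genes, and on the right 21 against 15 and 10 against 3.

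Higher values in hda108 were common across the whole low range and not confined to the 110 genes. Of the 5397 rows low in wild type, 51.7% were higher in hda108, and of the 5597 rows low in hda108, 39.0% were higher in wild type. These totals include rows listed at 0 in the other genotype, which cannot be higher there. Such rows numbered 771 among those low in wild type and 1277 among those low in hda108. Rows with a geometric mean of 0.5 to 1 FPKM, the class that holds 84 of the 110 genes, had a median log2 ratio of 0.15, against 0.06 for rows at 5 to 20 FPKM. A value of 0.577 FPKM in hda108 had the same rank as 0.5 FPKM in wild type. Further up, 20.6 FPKM in hda108 ranked with 20 FPKM in wild type. Ratios of at least 2 were at the same time frequent at low levels in both directions: in the class of 0.5 to 1 FPKM 11.6% of rows were 2-fold higher in hda108 and 5.61% lower, and at 5 to 20 FPKM 0.982% were higher and 0.563% lower. The share of higher rows among those past 2-fold was 67.4% in the first of these classes and 63.6% in the second.

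**Figure D4:**
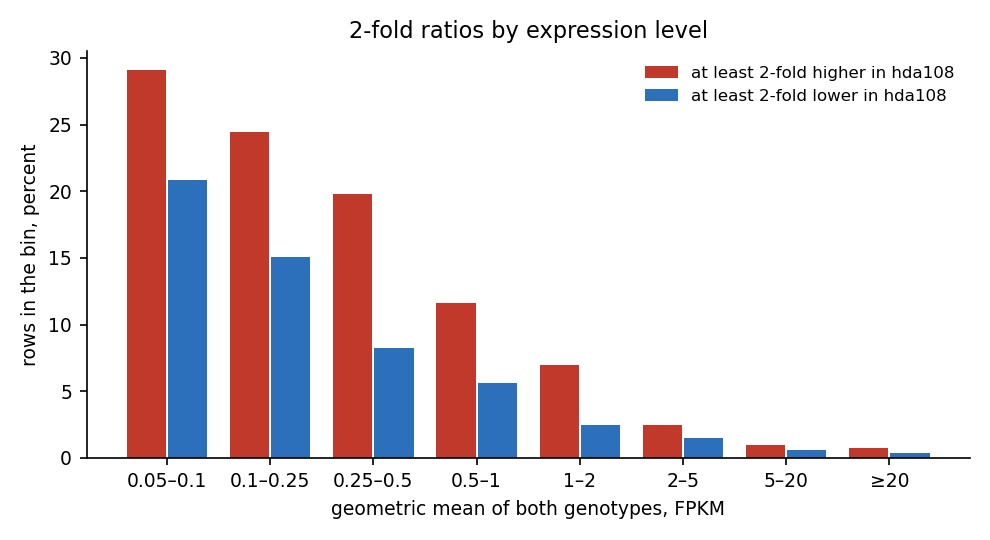
Percent of rows with a ratio of at least 2 in either direction (vertical) by the geometric mean of both genotypes in FPKM (horizontal), with rows higher in hda108 on the left of each pair. Both shares fall as expression grows, from 29.1% and 20.8% in the lowest class to 0.748% and 0.374% in the highest.

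The genes were spread over all 9 chromosomes of the rule. Chromosome 3 held 18 against 2 mirror genes, chromosome 9 held 16 against 2, and chromosomes 1 and 2 held 15 each, against 4 and 8. As a share of rows low in wild type, chromosome 9 was highest at 3.43% and chromosome 10 lowest at 1.42%. Chromosome 5 differed from this order, with 10 genes on either side, and chromosome 10 had 7 against 5. On chromosome 4, where HDA108 lies and which the rule leaves out, the same limits gave 23 genes against 22 mirror genes, which is 3.66% of rows low in wild type and 3.32% of rows low in hda108. Both directions were thus frequent there and near equal in number; whether chromosomes differ was not tested.

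**Figure D5:**
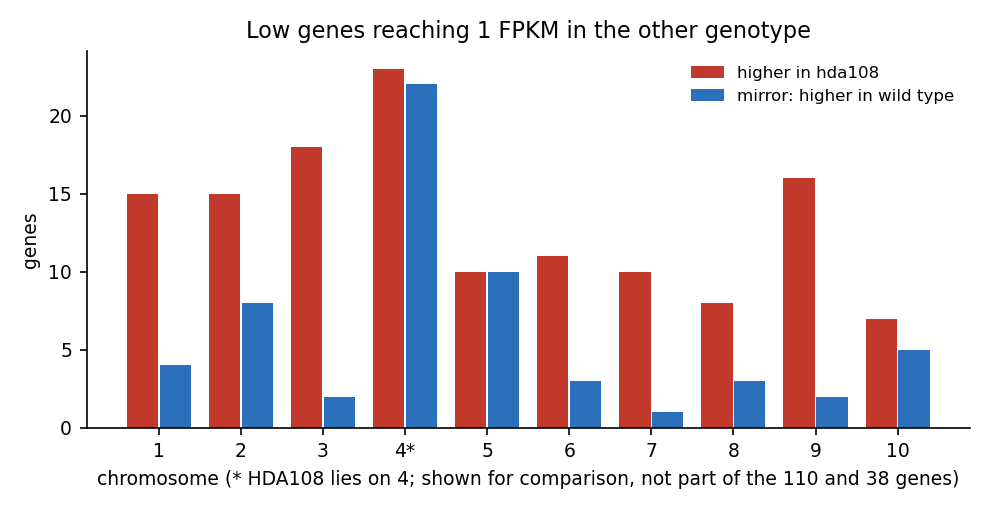
Number of genes higher in hda108 and in the mirror set (vertical) on each chromosome (horizontal), from the deposited FPKM. Chromosome 4, marked with a star, is outside the rule and has 23 against 22 genes, while chromosomes 3 and 9 have 18 against 2 and 16 against 2.

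Some of the genes lie side by side. EREB65 and GRMZM2G124037 (chromosome 2, 195129908 to 195130993) are adjacent rows 4.27 kb apart, and the second had 3.33 FPKM in hda108 and 0.139 FPKM in wild type. Both rank among the 4 highest of the set. On chromosome 6, GRMZM2G546373 (84130726 to 84131204) and AC196502.3_FG003 lie 0.451 kb apart, with 2.90 and 1.39 FPKM in hda108 against 0.468 and 0.259 FPKM in wild type. On chromosome 9, GRMZM2G704285 and AC219190.3_FG002, 20.9 kb apart, had 1.29 and 1.32 FPKM in hda108 against 0.225 and 0.458 FPKM in wild type. Altogether 4 consecutive pairs were within 100 kb and 13 within 1 Mb, and these 13 held 25 of the 110 genes. On chromosome 3, GRMZM2G069511, GRMZM2G004858 and GRMZM2G103135 formed the only run of 3 at such distances, with 1.87, 1.08 and 1.02 FPKM in hda108 and 0.333, 0.478 and 0.498 FPKM in wild type. The mirror set, of 38 genes, had 1 pair within 100 kb and 3 within 1 Mb. A larger set holds more near pairs by its size alone, and near pairs were not counted over all low rows. Whether the genes of either set lie closer together than other genes was therefore not tested.

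Other genes of the set lie near genes that were at least 2-fold higher in hda108 and above the ceiling of the rule in wild type. GRMZM2G058208 (chromosome 7, 144872209 to 144873352), a protein-coding gene with 2.06 FPKM in hda108 and 0.455 FPKM in wild type, lies 0.485 kb from GRMZM2G058173, which had 374 FPKM in hda108 and 59.2 FPKM in wild type. The MADS-box gene m31 lies 60.8 kb from m15 (MADS15), with 18.1 FPKM in hda108 and 3.84 FPKM in wild type and no row between them. GRMZM2G069146 (chromosome 7, 141174420 to 141175245), with 2.09 FPKM in hda108 and 0.351 FPKM in wild type, lies 10.7 kb from the ethylene response factor gene EREB36, described above. The row between this pair, GRMZM2G069126, had 0.622 FPKM in hda108 and 0.157 FPKM in wild type. AC184133.3_FG001 lies 83.1 kb from GRMZM5G865949, with 4.32 FPKM in hda108 and 0.562 FPKM in wild type, so just above the ceiling. GRMZM5G858609 lies 16.3 kb from GRMZM2G076584, with 2.94 FPKM in hda108 and 1.19 FPKM in wild type, a log2 difference of 1.02 on FPKM + 0.5.

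Counted over the set, 78 of the 110 genes had an adjacent row with both values above 0 and a mean of at least 1 FPKM, and in 7 of these 78 (8.97%) such a row was at least 2-fold higher in hda108 on FPKM + 0.5. Among all rows of the rule the share was 1.94%. In 3 of the 7 the neighbour was itself of the set; with neighbours from neither set counted, the share was 4 of 77 (5.19%), against 1.71% of all rows. None of the 78 had an adjacent row at least 2-fold lower, a share of 0.933% among all rows. In the mirror set 2 of 28 genes had an adjacent row at least 2-fold lower and 0 a higher one, and with neighbours from neither set counted, 0 of 26 had a lower one. With 3 rows on either side, 12 of 106 genes (11.3%) had a neighbour at least 2-fold higher, against 4.39% of all rows, and 3 (2.83%) had one at least 2-fold lower, against 2.13%. With neighbours from neither set the shares with a higher one were 5.66% and 3.92%. These shares rest on few genes, and the difference was not tested.

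In the mirror set the highest values in wild type were those of GRMZM2G068763, with 0.224 FPKM in hda108 and 2.55 FPKM in wild type, GRMZM5G892308 (0.316 in hda108, 2.16 in wild type), AC194157.3_FG001 (0.230 in hda108, 2.10 in wild type), GRMZM2G161313 (0.389 in hda108, 2.01 in wild type) and GRMZM2G081515 (0.340 in hda108, 1.96 in wild type). The first 4 have no RefSeq entry, and their loci span 585, 331, 204 and 682 bp.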

How the data were processed

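The table was analysed as deposited. The authors made 1 FPKM value per gene and genotype from 3 libraries each, and per the submitters' processing notes the tools were TopHat2 2.0.13, Cufflinks and Cuffdiff 2.2.1, with Trimmomatic 0.33, CASAVA 1.8 and SAMtools, on B73 RefGen_v3, with no roles or settings listed; scaling between libraries is not given in the sources used here. The table's homozygote column was taken for hda108/hda108, the one mutant genotype in the labels. Depth is unknown.

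The members and lists were chosen with earlier results of these data known. Planned tests over libraries could not be run on 1 value per genotype, so counts are descriptions. A 2-fold difference is a log2 difference of FPKM + 0.5 of at least 1. Names came from the RefSeq table of Zm-B73-REFERENCE-NAM-5.0, where 18539 of 39604 identifiers had a single entry and 2737 an informative name, and 521 with several entries got no name. Lists were filled by symbols, which unrelated genes can share; those for glutathione S-transferases, ARGOS, BAF60 and anthocyanins were added after the values were seen. Named genes were the 12 highest in hda108, the 12 largest log2 differences, all with informative names, 3 on either side of each limit, and 5 mirror genes; neighbours, near pairs and other list members were chosen after their values were seen. Promoter motifs and sequences were not analysed here. The counting step was tested on simulated data. Software was Python 3.11.15 with pandas 2.3.3 and numpy 2.4.6, and matplotlib 3.10.9 for figures.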

Additional observations from a re-analysis of the deposited data

Results flagged for a closer look

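Rows listed at exactly 0 in 1 genotype were outside the rule, which asks for a value above 0 in both genotypes. On the same chromosomes and with unshared loci, 20 rows were at least 1 FPKM in hda108 and listed at 0 in wild type, and 4 were at least 1 FPKM in wild type and listed at 0 in hda108. The highest of the first kind were GRMZM2G455413 with 2764 FPKM in hda108, GRMZM2G498613 with 81.1 FPKM, in a locus of 108 bp, and the microRNA precursor entry MIR167e with 34.8 FPKM, in a locus of 119 bp. They are high values in rows that the comparison does not use. Each rests on 1 value per genotype, and whether a listed 0 means that no RNA was present was not tested.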

How the results depend on the processing

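The counts moved with the limits, and the genes higher in hda108 outnumbered the mirror genes in every alternative run. A ceiling of 0.25 FPKM gave 25 against 7 genes, a ceiling of 0.75 FPKM 295 against 128, and a minimum of 2 FPKM 17 against 4. A locus span of at least 1000 bp gave 71 against 18, and including chromosome 4 raised the mirror set to 60. Quantile normalization gave 73 against 63 (53.7% higher), and with a span of at least 1000 bp 46 against 38 (54.8%). With 1 RefSeq entry the counts were 47 against 10 (82.5%), and with that span as well 38 against 9; these last 3 settings were added after seeing the data. Listed zeros (130 against 42), shared locus entries (114 against 43) and scaling hda108 to a median log2 ratio of 0 (97 against 47, 67.4%) moved the counts less. Of the 28 genes plotted by name, 4 were no longer past 2-fold with a pseudocount of 1 FPKM and 2 were newly past it with 0.1 FPKM. The depth that would limit values near 0.1 FPKM is unknown. Shares of promoters with a motif were not run. No paired analysis was possible because the table has no column per library, and leaving out single libraries was not run for the same reason.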

Other observations

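On chromosome 4, where the same limits gave 23 genes higher in hda108 and 22 mirror genes, the genes of the mirror kind lay closer together. Within 100 kb there were 4 consecutive mirror pairs and 0 pairs of genes higher in hda108. The adjacent rows GRMZM2G180547 and GRMZM2G180552, 0.514 kb apart, had 0.0178 and 0.203 FPKM in hda108, against 1.16 and 1.03 FPKM in wild type. The adjacent rows GRMZM5G866121 and AC205057.3_FG004, 2.33 kb apart, had 0.107 and 0.242 FPKM in hda108, against 1.25 and 3.47 FPKM in wild type. Among the genes higher in hda108 there, GRMZM2G433684 had 6.74 FPKM in hda108 and 0.152 FPKM in wild type, and GRMZM2G100313 had 3.34 FPKM in hda108 and 0.263 FPKM in wild type. Of these 23 and 22 genes on chromosome 4, 0 carry an informative name, against 14 of 148 on the chromosomes of the rule. There 6.86% of all rows are named, and 5.33% of rows low in wild type outside the set. At such shares so few genes can give no name, and the named share of all chromosome 4 rows was not counted. None of these differences was tested.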
